A study of Danio rerio with 45 samples.

Results

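hwa (Huluwa) is a zebrafish maternal dorsal determinant, followed here across the animal-vegetal axis of the early embryo. It was taken as 1 of the 12670 genes of the deposited count table, where it has 1 row (Ensembl ENSDARG00000094542, older symbol si:dkey-121h17.7, a protein-coding gene). In the authors' deposited ortholog table hwa has 2 rows, which pair it with rainbow trout LOC110509564 and hwa and with brook trout hwa. No coordinates or sequence are given, because the annotation used for gene names is of a genome build other than that of the counts.

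The fertilised egg carries hwa mRNA made in the mother and stored at the vegetal pole. The encoded transmembrane protein is known to be needed for the dorsal organiser: it promotes the loss of Axin with the help of tankyrase, so that beta-catenin is stabilised on the future dorsal side without a Wnt ligand. The vegetal RNAs sybu and grip2a belong to the same biology, as sybu links cargo to kinesin and grip2a is a scaffold needed for dorsal specification.

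Wild-type or other strain, genotype and treatment are not given in the labels used here. The embryo samples were of 3 ages: 1 hour post fertilisation (hpf; about 4 cells), 2 hpf and 3 hpf. Each was cut into sections A (animal end), B, C, D and E (vegetal end), and each section gave 1 strand-specific, ribosomal-RNA-depleted RNA-seq library (TOMO-seq). The groups were the 15 combinations of stage and section, with 3 replicates at 1 and 3 hpf and 2 at 2 hpf. The number of embryos behind a replicate is not given in the sources used here. Every library started from 20 ng of RNA, so a value is the share of a section's RNA and not an amount per embryo: more hwa and less of other RNA cannot be told apart.

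Library totals ran from 1355607 to 6566549 counts, and hwa had between 8 and 1527 counts in each of the 40 libraries, 11820 in all. At 3 hpf the vegetal libraries were shallow: totals in E lay between 1355607 and 2327972, and in A between 4316597 and 5398317. The animal-vegetal labels were checked with other RNAs. Of 13 vegetal RNAs in the table (hwa included), 10 were higher in E than in A at 1, 2 and 3 hpf, where 6.76, 5.12 and 8.1% of all genes were, and 1 was lower. Of 7 animal RNAs, 6 were lower in E at each stage, against 6.34, 4.87 and 7.49% of all genes, and none was higher. Both lists were chosen with earlier results of these data known, so this is a description. Markers of ovarian follicle, blood and liver were nearly missing: 2 of 18 (gsdf and lhcgr) were in the table, and their summed level was at most 11.8 CPM (counts divided by the library total and its TMM scaling factor, times 1e6) in any library. Of 7 yolk syncytial markers, 1 (rrbp1b) was present, and it was lower in E at all 3 stages. It already had 81.2 to 292 CPM at 1 hpf, against 74.4 to 204 CPM at 3 hpf, so it is no measure of that layer here. The first principal component (38.6% of the variance) set 13 libraries apart: all of replicate 3 at 1 and 3 hpf, and from replicate 2 at 2 hpf the sections A, B and E. In those the row espl1_1 held 98.8 to 100% of the reads of the 2 espl1 rows, against 0 to 0.877% elsewhere. Sections labelled 2 hpf replicate 2 thus hold 2 profiles, with C and D on the other side.

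At 1 hpf hwa was already a vegetal RNA. In section E its level was 174 CPM in replicate 1, 278 CPM in replicate 2 and 279 CPM in replicate 3 (mean 244 ± 60.7, SD, n = 3). In section D it was 47.0, 29.2 and 42.9 CPM (39.7 ± 9.34). Sections A to C held little: A 5.29, 4.34 and 4.18 CPM, B 7.82, 5.83 and 9.36 CPM, and C 10.8, 5.51 and 18.2 CPM. All 3 E values lay above all 3 D values, and all D values above all of A, B and C. The lowest A value rests on 8 counts, for which the Poisson interval alone is 2.28 to 10.4 CPM.

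Tests of neighbouring sections used edgeR's quasi-likelihood test with the replicate as a block and Benjamini-Hochberg adjustment over all genes. E exceeded A by a log2 fold change of 5.84 ± 0.28 (SE; adjusted p = 3.79e-13), which is 57.5-fold (39.2 to 84.2). That contrast was higher for 6.76% of all genes tested, and among genes of at least 10 CPM in 1 or more groups hwa had the second highest fitted change (rank 2 of 10435). E exceeded D by 2.63 ± 0.20 (adjusted p = 2.32e-09; 5.13% of genes were higher), and D exceeded C by 1.78 ± 0.24 (adjusted p = 6.35e-05; 1.33% were higher). D exceeded A by 3.22 ± 0.32 (adjusted p = 5.58e-07; 1.7%). The remaining neighbours did not pass: C minus B was 0.59 ± 0.30 and B minus A 0.85 ± 0.39, with adjusted p of at least 0.994. C minus A was 1.43 ± 0.37 (approximate interval 0.72 to 2.15; unadjusted p = 0.000785, adjusted p = 1.00). All 3 A values lay below all B and C values, while B and C overlapped. The order by means was E, D, C, B and A, and of these steps E over D and D over C passed. Without replicate 3, which is among the libraries set apart, E minus A was 5.59 (adjusted p = 9.33e-13).

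**Figure D1:**
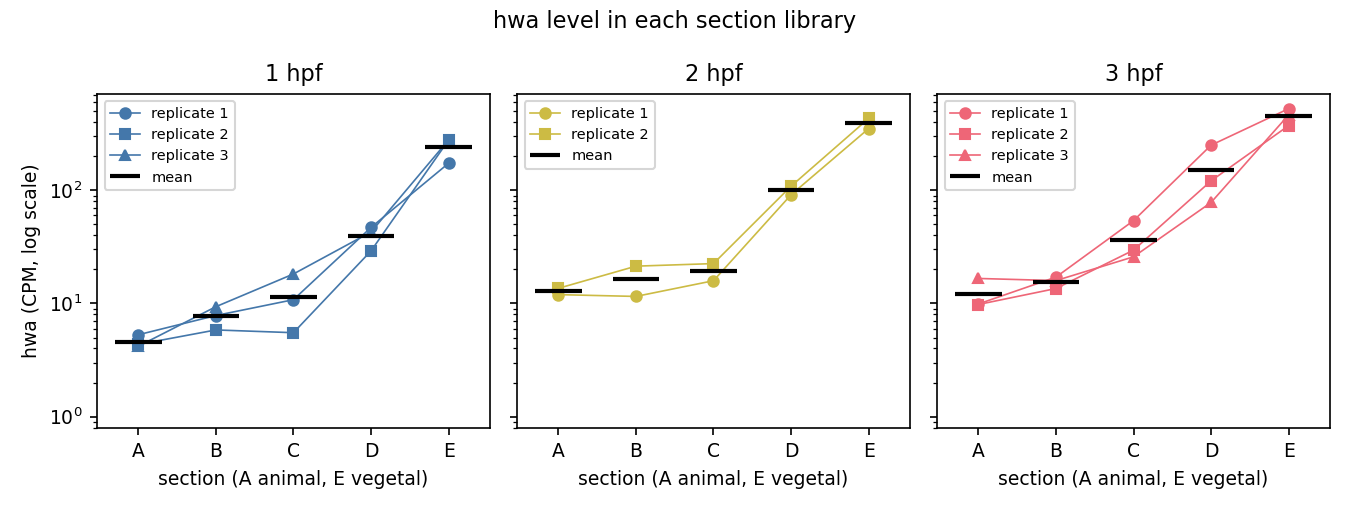
hwa level (CPM, log axis) in every section library, with sections from animal (A) to vegetal (E) on the horizontal axis, 1 panel per stage, a line per replicate and black bars for means. In all 8 embryo samples E is highest and D second, with E at 174 to 527 CPM.

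At 2 hpf the pattern had the same order. Section E held 352 and 432 CPM in the 2 replicates and section D 91.4 and 109 CPM. A held 11.97 and 13.6 CPM, B 11.5 and 21.4 CPM, and C 15.9 and 22.5 CPM, so B overlapped A and C. E exceeded A by 4.95 ± 0.19 (adjusted p = 5.15e-07; 30.9-fold; 5.12% of genes were higher), E exceeded D by 1.97 ± 0.16 (adjusted p = 0.000596; 1.91%) and D exceeded C by 2.40 ± 0.17 (adjusted p = 0.000287; 0.77%). D exceeded A by 2.98 ± 0.19 (adjusted p = 2.9e-05; 2.22%). The fitted E minus A change of hwa ranked 8 of 10435. C minus A (0.58 ± 0.19) and B minus A (0.34 ± 0.20) did not pass. Without sections C and D of replicate 2, which fall with the other profile, E minus A was 4.96 and D minus C was 2.54. The latter then rests on replicate 1 for those sections, and was chosen after the values were seen. E minus D and D minus A join the 2 profiles in replicate 2. By CPM, log2 E over D was 1.94 in replicate 1 and 1.99 in replicate 2, and log2 D over A was 2.93 and 3.00.

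At 3 hpf, section E held 527, 374 and 465 CPM (455 ± 77.2) and section D 251, 121 and 78.2 CPM (150.14 ± 89.9). Section C held 54.0, 29.6 and 25.8 CPM (36.5 ± 15.3). B held 17.1, 13.6 and 15.9 CPM and A 9.90, 9.79 and 16.6 CPM. E lay above D, and D above C, in every replicate. D varied most, with replicate 1 more than 3 times as high as replicate 3 by these values. E exceeded A by 5.25 ± 0.27 (adjusted p = 2.57e-12; 37.9-fold; 8.1% of genes were higher), E exceeded D by 1.70 ± 0.22 (adjusted p = 2.65e-05; 3.64%) and D exceeded C by 1.99 ± 0.24 (adjusted p = 1.69e-05; 1.8%). D exceeded A by 3.54 ± 0.27 (adjusted p = 6.12e-09; 3.88%). In E minus A hwa ranked 5 of 10453. Section C also passed against A, by 1.55 ± 0.29 (adjusted p = 0.00586; 0.871% were higher). That call rests on the libraries used: the adjusted p was 0.288 without the block, 0.157 without replicate 1 and 0.473 without replicate 2. Without replicate 3, E minus A was 5.52.

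**Figure D2:**
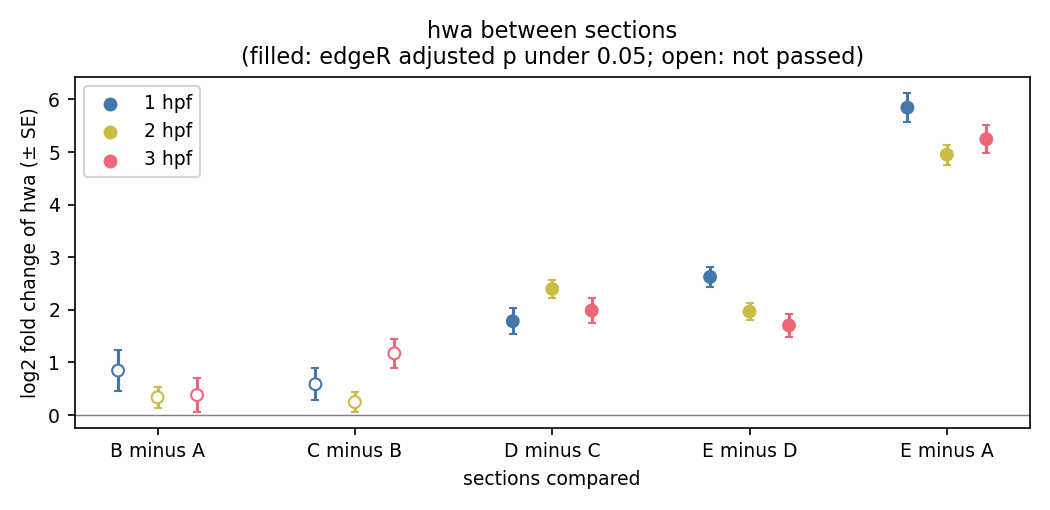
Log2 fold change of hwa (± SE) for each step between neighbouring sections and for E minus A, by stage. Filled points passed at an adjusted p under 0.05: E minus A, E minus D and D minus C are filled at all 3 stages, while C minus B and B minus A are open.

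Whether the gradient changed with age was tested as the stage by section interaction in 1 fit of the 40 libraries in which every embryo sample (8 in all) had its own block. The E minus A difference was lower at 3 than at 1 hpf by 0.59 on the log2 scale (-0.59 ± 0.49, adjusted p = 0.723), with an approximate interval from -1.55 to 0.37. It ranged from -1.10 without replicate 1 to -0.067 without replicate 3. The comparison called 0.324% of genes higher and 0.371% lower. The step from D to E was smaller at 3 hpf by -0.91 ± 0.33 (interval -1.56 to -0.26); its unadjusted p was 0.00989 and its adjusted p 0.327, so it did not pass, and 0.0553% of genes were called lower. The D minus A difference moved by 0.32 ± 0.53 (adjusted p = 0.961). None of these interactions passed.

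The same question was put to each embryo sample by dividing the 5 section CPM values by their sum. Each section weighs the same in this sum, so a share is not a percentage of the embryo's hwa. Section E held 71.0, 86.1 and 78.9% of the sum at 1 hpf, 72.9 and 72.2% at 2 hpf, and 61.4, 68.2 and 77.3% at 3 hpf. Its mean share was 78.7 ± 7.56% at 1 hpf and 69.0 ± 7.99% at 3 hpf, and the groups overlapped. The difference of -9.72 points gave p = 0.2 in an exact two-sided permutation test, in which 3 against 3 samples cannot go below 0.1. It was -5.62 points without replicate 2 and -13.8 points without replicate 3. Section D held 19.2, 9.02 and 12.1% of the sum at 1 hpf and 29.2, 22.1 and 13.0% at 3 hpf. The mean position (A = 1 to E = 5) was 4.65 ± 0.115 at 1 hpf, 4.56 ± 0.0203 at 2 hpf and 4.53 ± 0.0591 at 3 hpf, and its difference of -0.119 between 1 and 3 hpf also gave an exact permutation p of 0.2 (-0.058 without replicate 2). Paired by replicate number, E share was lower at 3 hpf in 3 of 3 pairs (by -9.63, -17.9 and -1.61 points), as were position and log2 E over D, and D share was higher in 3 of 3 (by 9.98, 13.1 and 0.879 points). The exact sign-flip permutation p was 0.25 for each, the smallest that 3 pairs allow. These measures rest on the same section values and are not separate evidence. Log2 E over A went both ways: it changed by 0.70, -0.75 and -1.255, lower in 2 of 3 pairs (exact sign-flip permutation p = 0.5). Pairs 1 and 2 rest on the numbers alone, which the data did not tell apart. The shares of 2 hpf replicate 2 join sections of the 2 profiles and may not describe 1 embryo sample.

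**Figure D3:**
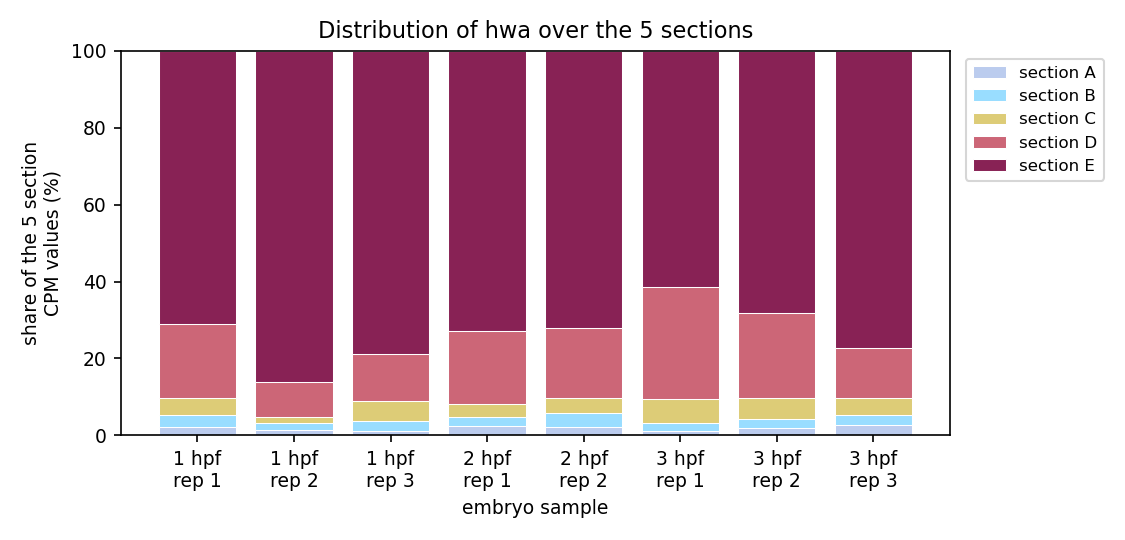
Share (%) of the 5 section CPM values of hwa in each section, 1 stacked bar per embryo sample. Section E takes 61.4 to 86.1% in all 8 samples, and section D is second in each.

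The level of hwa was then compared between stages. The mean of the 5 section CPM values was 48.9, 64.6 and 70.8 CPM at 1 hpf, 96.5 and 120 CPM at 2 hpf, and 172, 110 and 120 CPM at 3 hpf. All 3 hpf samples lay above all 1 hpf samples, 2.18-fold on the means (61.4 ± 11.3 against 134 ± 33.3 CPM). The exact permutation p was 0.1, the smallest that 3 against 3 samples can give. When counts of the 5 sections were summed instead, which weights sections by depth, the log2 change was 0.52 ± 0.17 (1.43-fold, edgeR adjusted p = 0.206, with 0.379% of genes higher). Totals in E were 3487492 to 5296971 at 1 hpf but 1355607 to 2327972 at 3 hpf. The sum thus gives E, where hwa is highest, less weight at 3 hpf, and is not an equal estimate of the change. How much this lowers the value was not tested. Deviations from the stage mean set replicate 3 apart at both 1 and 3 hpf. They did not tell numbers 1 and 2 apart (equal numbers 0.705 and 0.683, crossed 0.699 and 0.739), so pairing by number is not shown. With the replicate block as an alternative, the summed change was 0.51 ± 0.10 (edgeR adjusted p = 0.0258, with 1.8% of genes higher). Over all alternatives the adjusted p ran from 0.0258 to 1.00.

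Within a section, each of the 5 had a higher mean at 3 than at 1 hpf, but in the test without the block over all libraries none passed. The log2 change was 1.42 ± 0.32 in A, 1.02 ± 0.30 in B, 1.65 ± 0.44 in C, 1.91 ± 0.38 in D and 0.89 ± 0.20 in E, with adjusted p of 0.240, 0.294, 0.121, 0.0620 and 0.141. These fits called 0, 0.00792, 0.38, 0.119 and 0.0405% of genes higher. With the block, C rose by 1.66 ± 0.34 (adjusted p = 0.00649; 3.1% of genes higher), D by 1.81 ± 0.28 (0.00309; 1.78%) and E by 0.91 ± 0.18 (0.0346; 0.592%). DESeq2 without a block also called C (adjusted p = 0.00577), D (1.37e-05) and E (0.00269), and without replicate 3 the edgeR test without a block called C (0.00191) and D (0.00215). A and B did not pass with the block either (adjusted p = 0.153 and 0.229). Over the alternatives tried, the adjusted p ran from 0.00191 to 1.00 for C, from 1.37e-05 to 0.644 for D and from 0.00269 to 1.00 for E. By number, E changed by 1.60, 0.43 and 0.74, D by 2.42, 2.06 and 0.87 and C by 2.32, 2.42 and 0.50. B changed by 1.13, 1.22 and 0.77 and A by 0.90, 1.17 and 1.99. Replicate 3 thus moved least in B, C and D and most in A. In section E, 2 hpf against 1 hpf was 0.68 ± 0.22 (adjusted p = 1.00) and 3 hpf against 2 hpf 0.21 ± 0.23 (adjusted p = 1.00). Comparisons that use the same stage share its libraries.

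**Figure D4:**
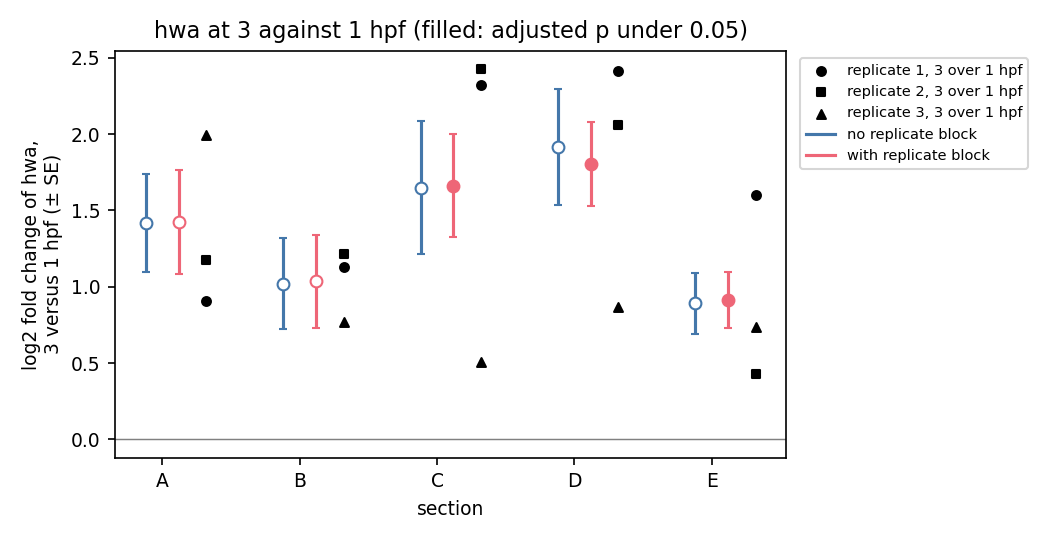
Log2 fold change of hwa at 3 against 1 hpf (± SE) in each section, without and with the replicate block, and as black symbols the ratio for each replicate number. All are above 0; filled points (adjusted p under 0.05) are C, D and E with the block.

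The genes most like hwa were named by rules on the pattern alone. Across the 40 libraries, log2(CPM + 1) of hwa had its highest Pearson r with sybu (0.985), crlf3 (0.984), celf1 (0.984), myl12.1 (0.984), ctdsplb (0.984), trim36 (0.982), yipf3 (0.980) and kif2a (0.980). Libraries of an embryo sample share their origin and each section its place, so these are descriptions. In the distribution over sections, trim36 and sybu were nearest (distances of 12.1 and 12.7 percentage points over the 40 shares), followed by celf1 at 18.3, grip2a at 19.3, vrtn at 24.6, ctdsplb at 24.8, dazl at 25.4 and bach2a at 25.5. trim36 encodes a ubiquitin ligase, known from the frog Xenopus to be needed for dorsal axis formation, dazl and celf1 encode RNA-binding proteins, and the next gene outside, slbp2, was at 29.7. From 1 to 3 hpf the mean CPM ratio was 2.18 for hwa, 1.77 for sybu, 2.22 for trim36, 2.89 for grip2a and 1.58 for dazl.

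hwa was compared with sybu, grip2a, trim36 and dazl in the 8 embryo samples, a choice made after values were seen. The log2 ratio of E to D averaged 2.13 for hwa; it was lower than that of grip2a by -0.32 ± 0.24 (SD) in 8 of 8 samples, and than that of sybu by -0.23 ± 0.22 in 7 of 8. The exact sign-flip permutation p was 0.0078125, the smallest possible, and 0.0156. Both were 0.0938 after adjustment over 12 tests, so neither passed. These tests treat the 8 samples as independent, although they span 3 stages and replicate 3 at 1 and 3 hpf shares a profile. The log2 ratio of E to A was lower in hwa than in dazl by -1.11 ± 0.90 in 7 of 8 samples (exact permutation p = 0.0234, adjusted 0.0938). Without 2 hpf, which leaves out the sample of mixed profile, these differences were -0.36 for grip2a, -0.17 for sybu and -0.73 for dazl. From 1 to 3 hpf the ratio of hwa to dazl changed by 0.47 and to sybu by 0.28 on the log2 scale, each with an exact permutation p of 0.1, the smallest possible (0.2 after adjustment over 4 tests). The ratio to grip2a went the other way (-0.38, exact permutation p = 0.2, adjusted 0.267), and that to trim36 was -0.0064 (exact permutation p = 1.00). The mean E share, given without a test, went from 79.2% at 1 hpf to 72.4% at 3 hpf in sybu, from 79.7 to 76.9% in grip2a, from 73.4 to 69.2% in trim36 and from 86.1 to 67.7% in dazl.

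**Figure D5:**
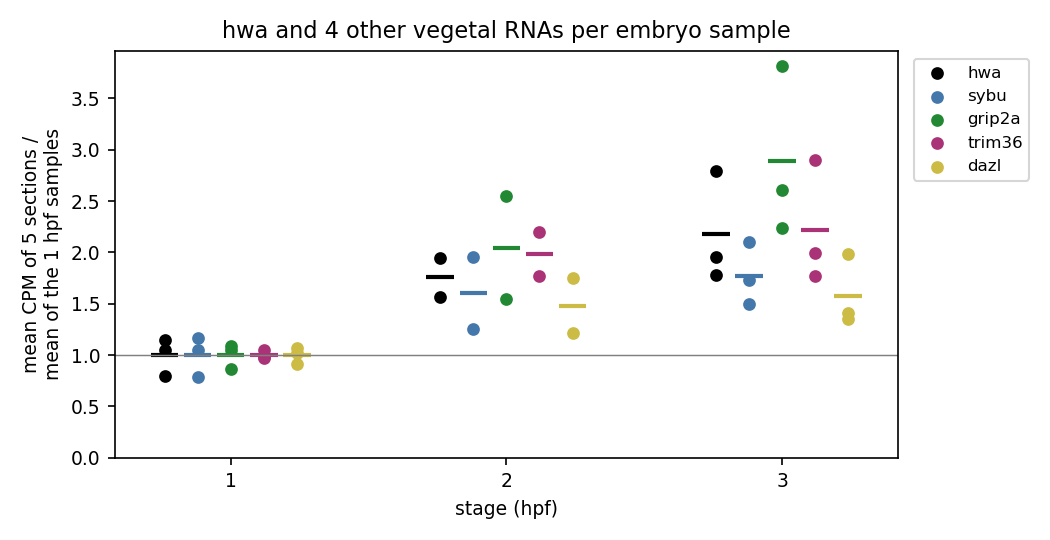
Mean CPM of the 5 sections per embryo sample relative to the mean of the 1 hpf samples, for hwa and 4 other vegetal RNAs by stage, with bars for stage means. hwa reaches 2.18 at 3 hpf, between dazl (1.58) and grip2a (2.89).

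Genes of the beta-catenin pathway differed between E and A in both directions. Of 44 listed genes, 32 were in the table. Of those 32, 6 were higher and 5 lower in E at 1 hpf, 5 and 5 at 2 hpf, and 7 and 4 at 3 hpf. The RNAs hwa, sybu and grip2a are among the higher ones. Over all genes 6.76, 5.12 and 8.1% were higher and 6.34, 4.87 and 7.49% lower in E at these stages. Because hwa, sybu and grip2a are listed as known vegetal RNAs, the counts of higher members are not read as a trait of the pathway. The list's median was 0.05, -0.09 and -0.00 on the log2 scale at 1, 2 and 3 hpf, against -0.00, 0.02 and -0.02 for all genes. In the destruction complex, axin1, the scaffold whose loss frees beta-catenin, ran opposite to hwa: at 1 hpf it had 523 ± 59.0 CPM in A and 158 ± 19.6 CPM in E (log2 fold change -1.71 ± 0.11), at 2 hpf the change was -1.76 ± 0.13 and at 3 hpf -1.89 ± 0.16. Its relative axin2 did not pass at any stage (-0.08, -0.37 and 0.22). These are RNA levels, and a link between hwa and axin1 was not tested. apc, another scaffold of the complex, was slightly higher in E at 1 hpf (0.36) and 3 hpf (0.35) but not at 2 hpf (-0.088). Its 3 hpf call was lost with library totals (0.14, edgeR adjusted p = 0.227). Of the listed kinase genes, gsk3ba and gsk3bb had no row. The kinase genes gsk3aa and gsk3ab did not pass at any stage. With library totals, however, both were lower in E at 3 hpf (-0.67 and -0.27, edgeR adjusted p = 0.0330 and 0.0305). The kinase gene csnk1a1, with section means of 5.10 to 11.9 CPM, did not pass at any stage. tnksa_1, a tankyrase row whose symbol carries a copy number and whose reads may be split, also did not pass (0.12, -0.26 and 0.02).

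Of the signal carriers, ctnnb2, the maternal beta-catenin gene needed for the axis, was modestly higher in E: 0.64 ± 0.11, 0.73 ± 0.18 and 0.80 ± 0.10. ctnnb1 did not pass (0.05, -0.16 and 0.06). Among the nuclear partners, lef1 was strongly vegetal, with 26.9 ± 13.0 CPM in section A against 328 ± 81.2 CPM in E at 1 hpf (3.72 ± 0.17) and 23.7 ± 8.60 against 525 ± 55.4 CPM at 3 hpf (4.55 ± 0.22), whereas the repressor gene tcf7l1a was lower in E (-0.93, -1.19 and -0.99). Their relatives tcf7 and tcf7l1b did not pass at any stage with TMM scaling. The receptor gene lrp5 was lower in E (-1.08, -1.07 and -0.96) and lrp6 did not pass. The motor gene kif5ba was lower in E at each stage (-0.52, -0.66 and -0.59), while its relative kif5bb did not pass (-0.18, -0.51 and 0.23). No pathway member passed for a change of its E minus A difference from 1 to 3 hpf; grip2a was at 1.16 ± 0.36 (adjusted p = 0.144) and lef1 at 0.84 ± 0.33 (adjusted p = 0.305). In the sum of sections, bcl9, a beta-catenin co-activator, fell by 0.45 on the log2 scale (-0.45 ± 0.07, adjusted p = 0.0290; 1.37% of genes were lower). The bcl9 call was lost without replicate 1 and without replicate 2, as was every other call of that fit. TMM scaling bears on small differences here: with library totals the median gene shifts by -0.22 for E minus A at 3 hpf, and the list then has 5 members higher and 11 lower. More genes of the whole table are then lower as well (counts below). The list's counts with library totals are thus not read as a trait of the pathway.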

How the data were processed

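RNA was counted in 40 section libraries of 8 embryo samples; 5 of the 45 labelled samples (2 hpf replicate 3) are not analysed here. The deposited counts are whole-number read counts per gene, per the file headers, and each of 12670 genes has at least 60 counts in all. The deposited normalised signal is, by its ratio to the counts, those counts over a factor that is constant within a library. The submitters' processing notes name genome build GRCz11 and, without roles, the tools DESeq2, HTSeq 2.0.4, STAR 2.7.11 and fastp 0.23.4; annotation and strand setting of the counts are not given in the sources used here. hwa has 1 row, and its overlap with other genes was not checked.

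Tests on counts used the quasi-likelihood test of edgeR 4.0.16 under R 4.3.3 with TMM, filterByExpr, Benjamini-Hochberg adjustment over all genes at 0.05. Within a stage the replicate number was a block. Stage comparisons used no block, with the blocked fit as an alternative. CPM are counts per library total and TMM factor. Single values were tested by exact permutation over embryo samples with SciPy 1.17.1. Fold intervals are approximate 95% intervals from the SE. The alternatives were DESeq2 1.42.0, library totals, no block, and leaving out replicates and libraries. Leaving out a replicate at 2 hpf leaves 1 library per section, so the spread between samples of that stage is not measured. Such fits are read by effect size only, although the counts of alternatives include their calls. Pairing of shares by number was added after seeing the data. The scripts were tested on simulated data.

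Pairing was checked: deviations of the summed samples from their stage mean correlated between 1 and 3 hpf by 0.705, 0.683 and 0.903 for numbers 1, 2 and 3. This check sets replicate 3 apart at both stages, and the labels give no pairing across stages. Numbers 1 and 2 were not distinguishable (crossed correlations 0.699 and 0.739), so the check cannot pair them. A p-value here reflects only how these samples vary, since no source says whether they are separate clutches. No 2 libraries of a group agreed within sampling noise (smallest chi-square per degree of freedom 3.42). hwa and the gene lists were chosen with earlier results of these data known. The genes named are hwa, list members, and the 8 most like hwa by correlation and by section share (mean of at least 10 CPM in 1 or more groups). The pathway list has more than the rule's 6 called members named, and those were chosen after their values were seen.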

Additional observations from a re-analysis of the deposited data

How the results depend on the processing

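Across 42 results on hwa, 359 alternatives were computed: 340 kept direction and side of the threshold, 10 crossed to a call, 3 lost one and 6 changed sign. For the permutation results on mean CPM, E share and position (6 alternatives each), p cannot go under 0.05. Only their direction could change. E minus A, E minus D, D minus C and D minus A passed in every alternative at 1 and 3 hpf. At 2 hpf they passed with all libraries kept. E minus A was 5.59 to 6.07 at 1 hpf, 4.79 to 5.02 at 2 hpf and 4.98 to 5.52 at 3 hpf. For C minus A at 3 hpf the change was 1.58 without the replicate block (adjusted p = 0.288) and 1.07 to 2.06 with a replicate left out (adjusted p = 0.157 without replicate 1, 0.473 without replicate 2). C minus B at 3 hpf was 0.91 to 1.402 with a replicate left out, and passed without replicate 3.

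For 3 against 1 hpf, the replicate block gave 1.66 in section C, 1.81 in D, 0.91 in E and 0.51 for the sum of sections, all passing; it changed no other call. DESeq2, without a block, gave 1.66, 1.93 and 0.91 in C, D and E, all passing. With a replicate left out the values were 1.22 to 2.34 in C and 1.48 to 2.29 in D, and both passed without replicate 3. Small differences changed sign: B minus A at 2 hpf ran from -0.053 to 0.65, the change of E minus A from 2 to 3 hpf from -0.00239 to 0.56, the change of D minus A from 1 to 3 hpf from -0.21 to 1.19, and E at 3 against 2 hpf from -0.046 to 0.49 with a replicate left out. The summed change from 2 to 3 hpf was -0.0153 with the block and -0.13 to 0.19 with a replicate left out. The comparison with other RNAs turned in some alternatives. For hwa minus sybu in log2 E over A the main value was -0.042. It was 0.0104 without replicate 1, -0.12 without replicate 3 and 0.13 without 2 hpf. For hwa minus grip2a in log2 D over A the main value was 0.031 (-0.058 to 0.086 with a replicate left out). For hwa over trim36 from 1 to 3 hpf the main value was -0.0064. It was 0.000502 with library totals, and -0.14, 0.075 and 0.043 without replicates 1, 2 and 3. Paired by number (a replicate block), E share and position gave an exact permutation p of 0.25. The causes were not tested.

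For E minus A the called genes were 851 higher and 799 lower at 1 hpf (566 and 414 without the replicate block, 1699 lower with library totals, 480 and 527 lower without replicates 2 and 3), 645 and 613 at 2 hpf (428 and 314 without section E of replicate 2, 1003 lower with library totals) and 1023 and 946 at 3 hpf (458 lower without the block, 2346 lower with library totals). The change of E minus A from 1 to 3 hpf called 41 higher and 47 lower (7 and 8 without the block, 91 and 74 with DESeq2, 85 lower with library totals, 8 to 25 higher and 7 to 16 lower without a replicate, 15 and 17 without section A of 1 hpf replicate 1). Summed sections called 48 and 173 (228 and 572 with the replicate block, 333 and 573 with DESeq2, 0 and 0 without replicate 1 or 2).

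Depth limits the low values of hwa, which has 8 counts in section A of 1 hpf replicate 1, and 2 hpf rests on 2 replicates.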

Other observations

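Of 21 listed zygotic genes of dorsal and ventral patterning, 7 had a row. vox, a ventral repressor of the organiser, had 1, 3 and 1026 counts over all libraries of 1, 2 and 3 hpf. her5 had 2, 6 and 855 counts and irx7 had 16, 22 and 835. vent, a relative of vox, had 1, 2 and 120 counts. All 3 of vox, her5 and irx7 were called higher in the summed sections at 3 than at 1 hpf (0.379% of all genes were higher). With so few counts at 1 and 2 hpf, they passed the low-count filter through their 3 hpf counts. A rise was thus largely set by the filter and is given as a description. At 3 hpf vox, her5 and irx7 were lower in section E than in A, by fitted log2 changes of -8.19, -8.61 and -7.8. The edgeR adjusted p was 0.00901, 0.000947 and 0.00825, where 7.49% of all genes were lower. Genes this low in E pass the filter through the sections where they are high, so this too is a description. These calls of a rise were lost without replicate 1 and without replicate 2, as was every other call of that fit. vent did not pass in either comparison (edgeR adjusted p = 0.0524 and 0.555). The others, ndr1_1, fgf8a and frzb, had 242, 520 and 542 counts at 1 hpf and 236, 376 and 420 at 3 hpf and did not pass.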
